A study of Mus musculus with 6 samples.

Results

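The mitochondrial genome of the mouse encodes 13 proteins, 2 rRNAs and 22 tRNAs, and its 37 transcripts were taken from a table of 26595 genes as every row whose GENCODE vM21 symbol begins with mt-. All 37 were found. They were compared between 3 libraries of HT22 cells exposed to IL-17 and 3 libraries of HT22 cells given no special treatment. HT22 is an immortal mouse cell line of hippocampal origin, and all 6 libraries carry the genotype label WT. The study set out to relate IL-17, an inflammatory cytokine, to fluoxetine resistance and JAK1-STAT6 signalling. Dose and duration of IL-17 are not given in the sources used here, and the labels do not say whether the libraries came from separate cultures, so the p-values rest on variation among these 6 libraries alone, and that variation may be technical.

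Mitochondrial DNA is transcribed along both strands into long precursors by the polymerase POLRMT with TFAM and TFB2M. In most places tRNAs lie between the mRNAs and rRNAs, and the precursors are cut at the tRNA ends by mitochondrial RNase P and ELAC2. Most of the released mRNAs receive short poly(A) tails from MTPAP and are kept stable by LRPPRC and SLIRP. The proteins are core subunits of respiratory complexes I, III and IV and of ATP synthase. In the annotation 28 genes lie on the plus strand, which are read from the heavy-strand promoters, and 9 on the minus strand, namely mt-Nd6 and 8 tRNA genes. The tRNA genes are 59 to 75 bases long, shorter than the library inserts of 300 ± 50 bp given in the labels, and the libraries were made from poly(A) RNA, so their values measure reads over tRNA sequence and not mature tRNA.

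In IL-17 libraries the values over 4 mitochondrial genes were lower, all of them tRNA genes, and no mitochondrial gene passed the test in the upward direction. Only the call on mt-Tw was made under all 19 alternative settings. Of the 4, mt-Tw, mt-Tc and mt-Ty lie in the single stretch of 5 tRNA genes between mt-Nd2 and mt-Co1, and mt-Tt lies beside mt-Cytb. All 13 mRNAs had positive log2 fold changes, between 0.018 and 0.49, and none passed. Tests were made with limma on log2(FPKM + 1), where FPKM is fragments per kilobase of transcript, scaled to the mapped fragments of each library, with Benjamini-Hochberg adjustment over 12953 genes. Over all tested genes 1.95% were called in either direction at an adjusted p under 0.05, 0.95% higher and 0.996% lower, against 0 of 37 mitochondrial genes higher and 4 of 37 lower. In such bulk RNA, fewer cells with a transcript and less of it per cell cannot be told apart.

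The sequences below are those of the 5 neighbouring tRNA genes and of mt-Tt, because the 4 changes that passed the test fall among them. Of those shown, mt-Ta and mt-Tn did not pass (limma adjusted p = 0.0589 and 0.0547). They are the whole genes from GENCODE vM21 (GRCm38), written 5′ to 3′ on the coding strand with the anticodon in capitals. Those of mt-Tw (chrM:4950-5016) and mt-Tt (chrM:15289-15355) are on the plus strand. Those of mt-Ta (chrM:5018-5086), mt-Tn (chrM:5089-5159), mt-Tc (chrM:5192-5257) and mt-Ty (chrM:5260-5326) are on the minus strand. In the order of the lines, their tRNAs carry tryptophan, alanine, asparagine, cysteine, tyrosine and threonine.
mt-Tw: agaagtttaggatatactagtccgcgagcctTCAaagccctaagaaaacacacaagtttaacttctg
mt-Ta: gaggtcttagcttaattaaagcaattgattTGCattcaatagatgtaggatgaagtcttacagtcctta
mt-Tn: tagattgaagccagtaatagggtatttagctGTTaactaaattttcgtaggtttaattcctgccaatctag
mt-Tc: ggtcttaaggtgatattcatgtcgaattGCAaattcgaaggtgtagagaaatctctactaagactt
mt-Ty: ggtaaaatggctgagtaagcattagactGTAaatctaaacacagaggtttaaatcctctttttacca
mt-Tt: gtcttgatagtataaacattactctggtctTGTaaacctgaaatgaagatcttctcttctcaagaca

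The libraries were of similar size by an indirect estimate. If the fullest bin of FPKM times length among genes with a single annotated transcript stands for a single fragment, depth lay between 15600000 and 17500000 mapped fragments per library. Summed FPKM ran from 365534 to 383093. Of the 10 neuronal markers 7 were in the table and 2, Tubb3 and Eno2, averaged at least 1 FPKM, while Rbfox3, which marks mature neurons, was listed at 0 in 5 of the 6 libraries. All 6 fibroblast markers averaged at least 1 FPKM, as did 2 of 6 macrophage markers, Cd68 and Csf1r. Summed levels of 6 lung epithelial markers were 57.7 to 161.4 FPKM in IL-17 libraries and 0.591 to 51.5 FPKM in controls. In controls, Sftpd and Scgb3a2 were listed at 0 in libraries 1 and 2, and Sftpa1 in library 1. Summed levels of 6 liver markers were 11.9 to 93.0 FPKM in IL-17 libraries and 46.4 to 86.9 FPKM in controls, and none of them was listed at 0. The part of lung or liver RNA in the results that follow was not tested. In 1 alternative setting the fit was repeated with neither IL-17 library 1 nor control library 3. The libraries kept in it still differed by group in both marker sums. Lung markers were at 57.7 and 161.4 FPKM in IL-17 libraries and 0.620 and 0.591 FPKM in controls. Liver markers were at 11.9 and 19.3 FPKM in IL-17 libraries and 86.9 and 72.9 FPKM in controls. That setting therefore cannot separate IL-17 from lung or liver RNA.

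Among the 5 tRNA genes between mt-Nd2 and mt-Co1, every IL-17 value lay below every control value. Non-overlapping groups with IL-17 below occurred for 10.9% of all tested genes. For mt-Tw the values were 32.6, 31.8 and 32.1 FPKM in IL-17 libraries and 47.8, 53.8 and 46.9 FPKM in controls. The IL-17 libraries were nearly equal (SD 0.400 FPKM) and stood well apart from the controls. On the depth estimate above, however, mt-Tw equalled only 33.5 to 36.9 fragments in IL-17 libraries. Whether so small a spread would recur at this level was not tested. The log2 fold change was -0.60 (SE 0.062, 95% interval -0.75 to -0.46; limma adjusted p = 0.00358). The call on mt-Tw was made under all 19 alternative settings, with a limma adjusted p between 0.00113 and 0.0397. Among them, the setting that only loosened the threshold to 0.1 could not lose a call.

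For mt-Tc the values were 134, 112 and 114 FPKM in IL-17 libraries and 187, 204 and 167 FPKM in controls. Its log2 fold change was -0.63 (SE 0.094, 95% interval -0.85 to -0.40; limma adjusted p = 0.0204). The nearest libraries of the groups, IL-17 library 1 and control library 3, were still apart. Dropping IL-17 library 2 or 3 ended the call on mt-Tc (limma adjusted p = 0.0918 and 0.0767), as did dropping control library 1 or 2 (0.0810 and 0.0709). Testing all genes without a filter ended it as well (0.104). It held without IL-17 library 1 and control library 3 together, at a log2 fold change of -0.78 and an adjusted p of 0.0106 by limma.

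For mt-Ty the values were 61.4, 50.6 and 50.6 FPKM in IL-17 libraries and 74.6, 79.0 and 73.9 FPKM in controls, a log2 fold change of -0.48 (SE 0.082; limma adjusted p = 0.0320). IL-17 library 1 was the highest of its group here, as it was for mt-Tc. The mt-Ty call was kept without IL-17 library 1 (limma adjusted p = 0.00462), and with control library 3 dropped as well (0.0202). It was lost without each of the other libraries in turn, where the limma adjusted p lay between 0.0990 without control library 1 and 0.140 without IL-17 library 2. Quantile normalization and testing without a filter also ended it (0.0696 and 0.121).

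The remaining 2 genes of this stretch stood just above the threshold. For mt-Tn the values were 205, 172 and 206 FPKM in IL-17 libraries and 272, 303 and 248 FPKM in controls, a log2 fold change of -0.49 (SE 0.096; limma adjusted p = 0.0547). For mt-Ta they were 181, 152 and 183 FPKM in IL-17 libraries and 238, 269 and 219.7 FPKM in controls, a log2 fold change of -0.49 (SE 0.099; limma adjusted p = 0.0589). In both genes IL-17 library 2 was lowest and control library 2 highest. Over the alternative settings the limma adjusted p ran from 0.0174 with array weights to 0.203 with a replicate block for mt-Tn, and from 0.0185 to 0.224 under the same settings for mt-Ta. Both also passed when genes under a mean of 2 FPKM were left out (0.0343 and 0.0384), and moved away from the threshold without IL-17 library 2 (0.159 and 0.174).

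The mRNA genes on either side of this stretch did not share its direction. The summed FPKM of the 5 tRNA genes was 615, 519 and 586 in IL-17 libraries and 819.7, 908 and 755 in the controls. Set against mt-Nd2, which encodes a complex I subunit, that sum was 1.25, 1.02 and 1.15 times as high in IL-17 libraries and 1.65, 1.91 and 1.78 times as high in controls. Set against mt-Co1, the catalytic subunit gene of complex IV, it was 0.201, 0.161 and 0.172 in IL-17 libraries and 0.263, 0.347 and 0.270 in the controls. These ratios are given without a test and show unequal values within a library. Whether reads were assigned by strand is not stated, so reads of the plus and minus strands cannot be told apart in these 5 genes, of which mt-Tw is on the plus strand and the other 4 on the minus strand.

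**Figure D1:**
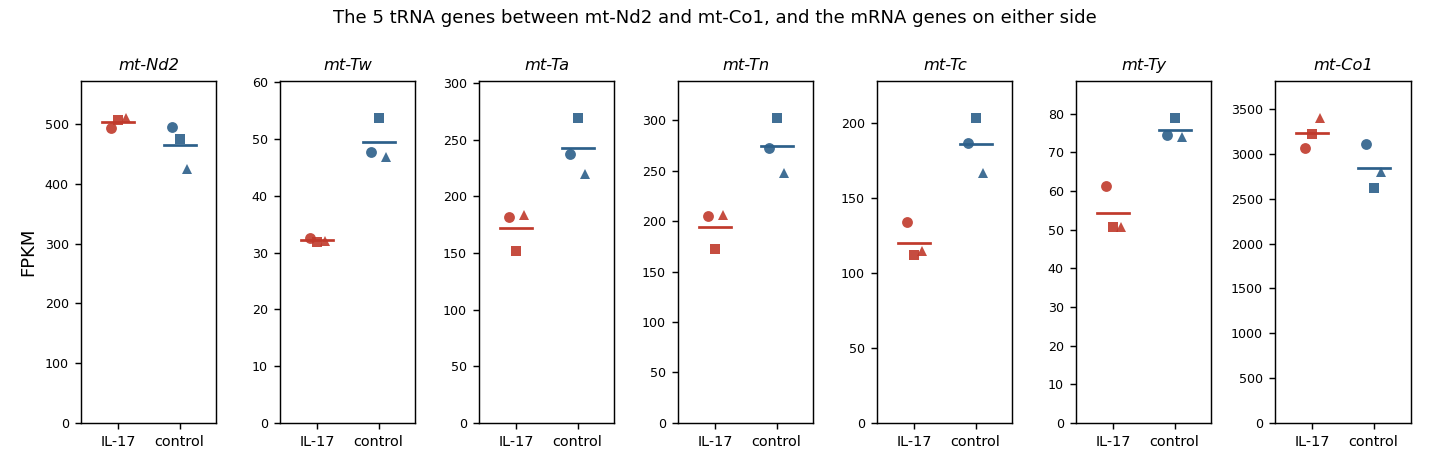
FPKM (vertical axes, each starting at 0) of the 5 tRNA genes between mt-Nd2 and mt-Co1 and of those mRNA genes, in 3 IL-17 libraries (red, left in each panel) and 3 control libraries (blue, right); circles, squares and triangles are libraries 1, 2 and 3 and lines are group means. In the tRNA panels all IL-17 points lie below all control points, while mt-Nd2 and mt-Co1 have overlapping groups with slightly higher IL-17 means.

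Outside this stretch, mt-Tt was the other tRNA gene that passed. Its values were 13.6, 12.5 and 14.0 FPKM in IL-17 libraries and 17.6, 21.7 and 18.3 FPKM in controls, a log2 fold change of -0.49 (SE 0.085; limma adjusted p = 0.0357). The groups did not overlap, but the call on mt-Tt was lost on leaving out any of the 6 libraries, with a limma adjusted p from 0.0581 to 0.152. Dropping IL-17 library 1 together with control library 3 ended it too (0.139), as did TPM scaling (0.0548), scaling to nuclear genes (0.0590) and testing without a filter (0.125). The valine tRNA mt-Tv, between the 2 rRNA genes, was at 0.0317, 0.546 and 0.286 FPKM in IL-17 libraries and 1.93, 0.925 and 1.54 FPKM in controls. It reached the filter of 0.5 FPKM only through the controls, with means of 0.288 FPKM in IL-17 libraries and 1.46 FPKM in controls. Its groups did not overlap either, which gives no support for that reason. It did not pass (log2 fold change -0.93, SE 0.19, limma adjusted p = 0.0613). At such low levels the value depended on the pseudocount, being -1.34 at 0.5 and -2.23 at 0.1, and on TPM scaling, where it was -1.52. Over the alternatives its limma adjusted p ran from 0.0393 with array weights to 0.233 with IL-17 library 1 and control library 3 dropped, and scaling to nuclear genes brought it to 0.0499.

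Some of these levels are low when put on a scale of estimated fragments. Multiplied by gene length and the depth estimate above, mt-Tw equalled 33.5 to 36.9 fragments in IL-17 libraries and 54.9 to 60.1 in controls. On the same scale mt-Tt equalled 13.6 to 15.4 fragments in IL-17 libraries and 20.4 to 24.2 in controls. By contrast mt-Tc equalled 118 to 149 fragments in IL-17 libraries and 193 to 224 in controls. For mt-Tv the figure was below 1 in all 3 IL-17 libraries and between 1.07 and 2.30 in controls. These equivalents are therefore not counts of whole fragments, and no counting interval is given. How many reads lie behind them is not known.

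The other 15 tRNAs had overlapping groups and did not pass. Among those with positive values were mt-Tr, the arginine tRNA, at 2.15 ± 0.505 FPKM in IL-17 libraries and 1.54 ± 0.353 FPKM in controls (SD, n = 3 each; log2 fold change 0.31), and mt-Tp, the proline tRNA. The mt-Tp levels were 129, 178 and 190.3 FPKM in IL-17 libraries and 140.4, 140.2 and 123 FPKM in controls, with IL-17 library 1 inside the control range. Its log2 fold change was 0.28 (SE 0.14; limma adjusted p = 0.359), and ran from 0.17 without IL-17 library 3 (limma adjusted p = 0.623) to 0.45 without IL-17 library 1, where it passed (0.0391). In mt-Te, the glutamate tRNA next to mt-Nd6, the values were 116, 116 and 115 FPKM in IL-17 libraries and 115, 136 and 110.1 FPKM in controls. The serine tRNA mt-Ts1, beyond mt-Co1, was at 214, 219 and 241 FPKM in IL-17 libraries and 225, 194 and 197 FPKM in controls. The remaining tRNA genes lay between log2 fold changes of -0.24 for mt-Tl2, a leucine tRNA, and 0.28 for mt-Td, the aspartate tRNA, whose low level made the value 0.76 at a pseudocount of 0.1 and 0.089 with control library 3 dropped. In that range mt-Ts2, mt-Tf, mt-Th and mt-Tk were negative, and mt-Tl1, mt-Ti, mt-Tq, mt-Tg and mt-Tm positive.

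Most tRNA genes annotated on the minus strand were at higher levels than most annotated on the plus strand, in FPKM. Whether reads were assigned by strand is not stated, so these values do not measure RNA of a given strand. The same limit holds for mt-Nd6. Averaged over the 6 libraries, the 8 minus-strand tRNA genes ran from 4.66 to 234 FPKM with a median of 151.6 FPKM. The 14 on the plus strand ran from 0.664 to 92.3 FPKM with a median of 6.71 FPKM, and 12 of them were below 20 FPKM. The exceptions on the plus strand were mt-Tl1, a leucine tRNA, and mt-Tw, and on the minus strand mt-Tq, the glutamine tRNA, was the lowest. Over the minus-strand tRNAs the median log2 fold change was -0.27 and over the plus-strand tRNAs -0.098. Over the 5 tRNAs between mt-Nd2 and mt-Co1 it was -0.49, and over the 17 other tRNAs 0.10, where the median of all tested genes was 0.016. The split of 5 against 17 tRNAs was not in the plan, which was by class and strand. As 3 of the 4 called genes are among the 5, these medians are no separate evidence.

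**Figure D2:**
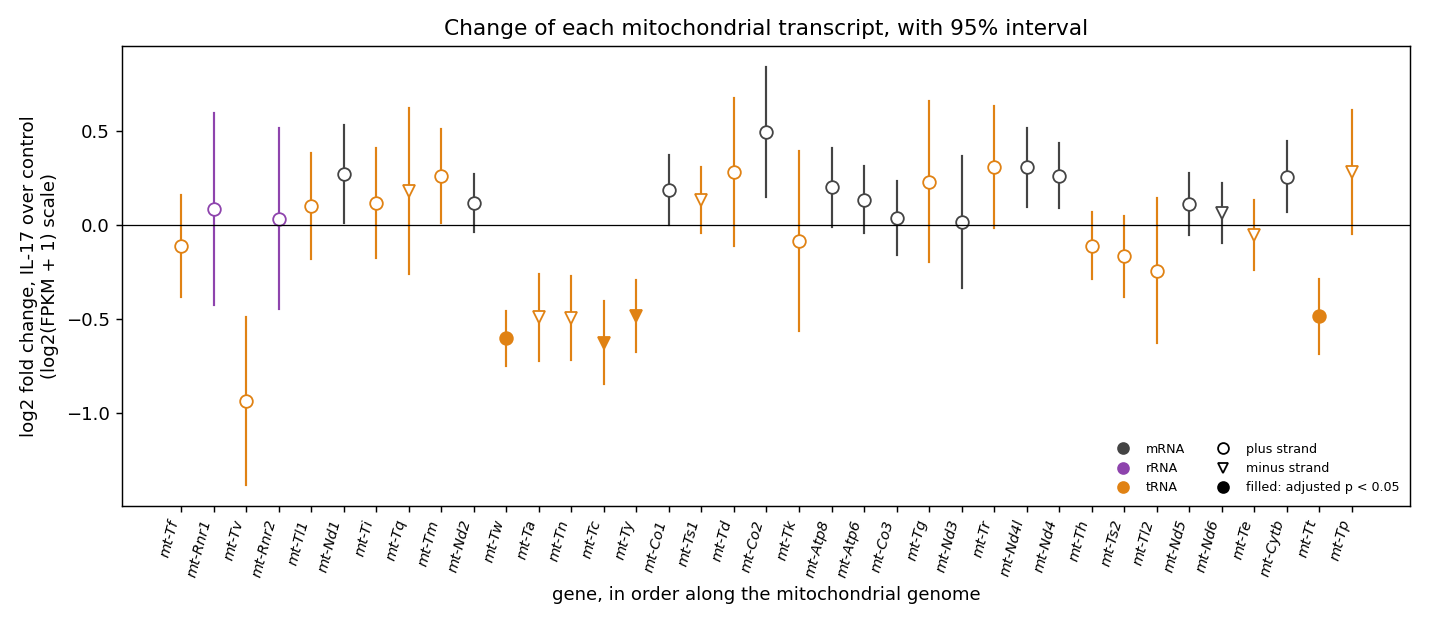
Log2 fold change of IL-17 over control on the log2(FPKM + 1) scale with its 95% interval (vertical axis) for the 37 mitochondrial genes in genome order; circles are plus-strand and triangles minus-strand genes, grey marks mRNAs, purple rRNAs and orange tRNAs, and filled symbols passed an adjusted p under 0.05. The 5 tRNAs from mt-Tw to mt-Ty sit together between -0.63 and -0.48, and mRNAs sit at or above 0. The lowest point is mt-Tv at -0.93, with a wide interval and an IL-17 mean under the filter of 0.5 FPKM.

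The 13 mRNAs had higher means in IL-17 libraries, but no difference among them passed the test. None passed limma over all genes, with the lowest adjusted p at 0.137, and 5 had an unadjusted p under 0.05, all of them positive, where 8.89% of all tested genes did so in that direction. The median log2 fold change of the 13 was 0.19, against 0.016 over all tested genes, and 55.1% of all tested genes had a positive value. Groups did not overlap, with IL-17 above, for 3 of the 13, and for 13.3% of all tested genes. All 13 stayed positive under every rescaling of the libraries, and with any of IL-17 library 1 and control libraries 1 and 2 left out. The number was 11 when IL-17 library 2 was dropped, 12 when IL-17 library 3 was, 11 when control library 3 was, and 11 when control library 3 and IL-17 library 1 were both dropped. With limma array weights, which give libraries unequal weight, mt-Nd1, mt-Co2, mt-Nd4l, mt-Nd4 and mt-Cytb passed as higher in IL-17 libraries, in a setting that called 1015 genes in all, against 252.

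Among complex I mRNAs, mt-Nd4 and mt-Nd4l had non-overlapping groups. They are neighbours that overlap by a few bases and are read from a shared mRNA. For mt-Nd4 the levels were 418, 407 and 409 FPKM in IL-17 libraries and 376, 344 and 309.99 FPKM in controls (log2 fold change 0.26, SE 0.074, 95% interval 0.091 to 0.43). For mt-Nd4l they were 300.04, 309 and 339 FPKM in IL-17 libraries and 289, 248 and 231 FPKM in controls (log2 fold change 0.31, SE 0.090). The control values were more scattered than the IL-17 values in both genes. Neither passed limma with Benjamini-Hochberg adjustment (adjusted p = 0.137 and 0.153).

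The other complex I mRNAs had overlapping groups. For mt-Nd1 the levels were 795, 908 and 917 FPKM in IL-17 libraries and 845, 708 and 631 FPKM in controls (log2 fold change 0.27, SE 0.11). IL-17 library 1 lay below control library 1. With control library 3 dropped the log2 fold change was 0.17 for mt-Nd1 and 0.053, against 0.12, for mt-Nd2, and with IL-17 library 1 dropped it was 0.051, against 0.11, for mt-Nd5. For mt-Nd2 the means were 504 ± 9.25 FPKM in IL-17 libraries and 465 ± 36.6 FPKM in controls, and for mt-Nd5 764 ± 57.7 and 706 ± 37.4 FPKM in the same groups. For mt-Nd3 they were 419 ± 73.1 FPKM with IL-17 and 413 ± 58.9 FPKM in controls, a log2 fold change of 0.018 (95% interval -0.33 to 0.37).

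mt-Nd6 is the only mRNA of the minus strand and also encodes a complex I subunit. Its levels were 749, 671 and 656 FPKM in IL-17 libraries and 638, 694 and 653 FPKM in controls. The highest value came from IL-17 library 1 and the rest were mixed. The log2 fold change was 0.063 (SE 0.068, 95% interval -0.095 to 0.22; limma adjusted p = 0.68). Relative to the median of the 12 plus-strand mRNAs, mt-Nd6 stood at 0.778, 0.644 and 0.622 in IL-17 libraries and 0.667, 0.827 and 0.838 in the controls, so the groups overlapped. mt-Nd5 and mt-Nd6 overlap at their ends on opposite strands, and their ratio, mt-Nd6 over mt-Nd5, was 0.899 to 0.918 in IL-17 libraries and 0.890 to 0.963 in controls.

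The mRNA with the largest fold change was mt-Co2, which encodes the complex IV subunit that receives electrons from cytochrome c. It was at 1171, 1415 and 1570.2 FPKM in IL-17 libraries and 1171, 963 and 824 FPKM in controls. IL-17 library 1 and control library 1 were equal to the FPKM, and the other libraries stood apart. The log2 fold change was 0.49 (SE 0.15, 95% interval 0.15 to 0.84), with a limma adjusted p of 0.16. For mt-Co1 the values were 3065, 3219 and 3404 FPKM in IL-17 libraries and 3116, 2620.03 and 2794 FPKM in controls (log2 fold change 0.19, SE 0.080). For mt-Co3 the means were 2571 ± 162 FPKM with IL-17 and 2509 ± 233 FPKM in controls, a log2 fold change of 0.038 (95% interval -0.16 to 0.24) that turned to -0.014 when IL-17 library 2 was dropped and to -0.039 when control library 3 was.

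Cytochrome b of complex III is encoded by mt-Cytb, the third mRNA with non-overlapping groups. It was at 1095, 1175 and 1191 FPKM in IL-17 libraries and 1067, 958 and 877 FPKM in controls. The gap between IL-17 library 1 and control library 1 was small. The log2 fold change was 0.26 (SE 0.080, 95% interval 0.070 to 0.45; limma adjusted p = 0.172).

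The ATP synthase genes mt-Atp8 and mt-Atp6 averaged 4016 and 3922 FPKM over the 6 libraries, and mt-Atp6 has a nuclear copy of the same sequence, Gm10925. No annotated copy was found for mt-Atp8, but unannotated copies were not searched, so its reads may be shared as well. Both genes share an mRNA and overlap by 43 bases, shown here because reads in the overlap belong to both (chrM:7927-7969, plus strand, GENCODE vM21 on GRCm38, with the start codon of mt-Atp6 and the stop codon of mt-Atp8 in capitals).
mt-Atp8/mt-Atp6: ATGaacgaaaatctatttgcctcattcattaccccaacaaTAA
For mt-Atp8 the levels were 3923, 4599 and 4358 FPKM in IL-17 libraries and 3919, 3942 and 3352 FPKM in controls. For mt-Atp6 they were 4268, 4253 and 3798 FPKM in IL-17 libraries and 3806, 3928 and 3477 FPKM in controls. The groups overlapped in both, narrowly for mt-Atp8. The log2 fold changes were 0.20 (SE 0.090) for mt-Atp8 and 0.14 (SE 0.076) for mt-Atp6. They were 0.12 and 0.085 with control library 3 dropped, and 0.13 and 0.046 after quantile normalization. The ratio of mt-Atp8 to mt-Atp6 was 0.919 to 1.15 in IL-17 libraries and 0.964 to 1.03 in controls.

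**Figure D3:**
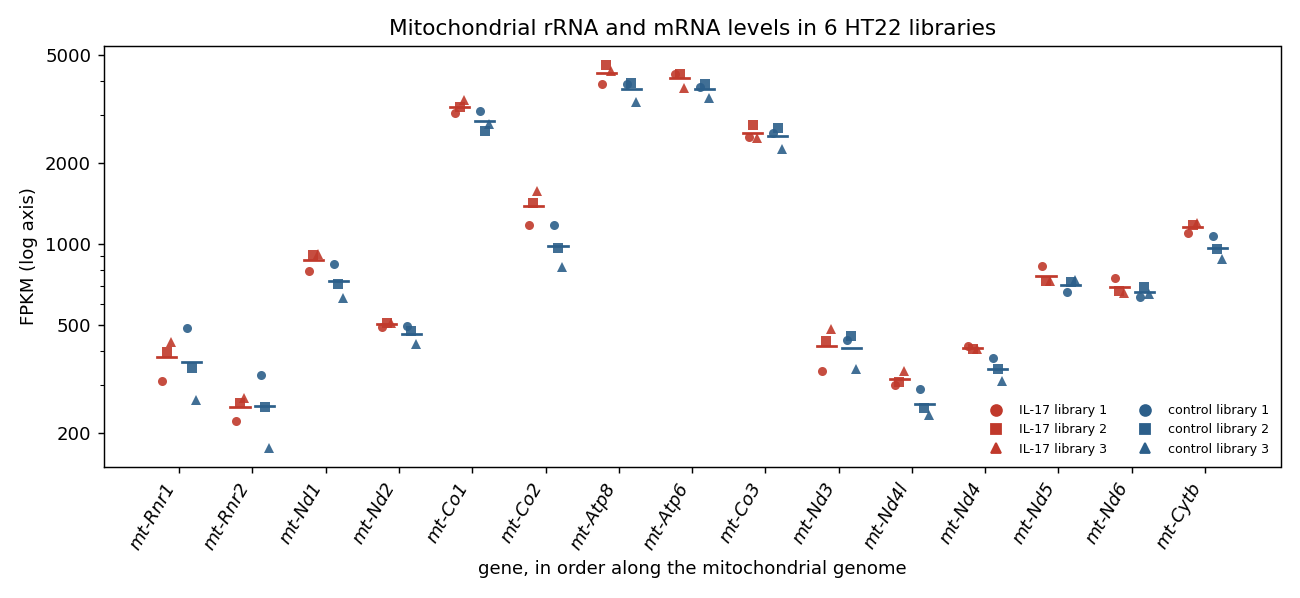
FPKM (log axis) of the 2 rRNA and 13 mRNA genes in genome order, in IL-17 libraries (red, left of each gene) and control libraries (blue, right); symbols mark libraries 1 to 3 and lines the group means. Levels span from 175 FPKM for mt-Rnr2 in control library 3 to 4599 FPKM for mt-Atp8 in IL-17 library 2, and control library 3 is often the lowest point.

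Differences between libraries of the same group ran through many mRNAs at once. Control library 3 was the lowest of the 6 libraries for 9 of the 13 mRNAs, and IL-17 library 3 the highest for 7. Among the IL-17 libraries, library 1 was lowest for 8. The 13 mRNAs share these libraries and are not independent measurements.

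The rRNAs varied widely between control libraries. mt-Rnr1, the small-subunit rRNA, was at 310.04, 397 and 434 FPKM in IL-17 libraries and 487, 348 and 264 FPKM in controls (log2 fold change 0.085, SE 0.22). mt-Rnr2, the large-subunit rRNA, was at 221, 258 and 269 FPKM in IL-17 libraries and 327, 249 and 175 FPKM in controls (log2 fold change 0.034, SE 0.21, 95% interval -0.45 to 0.51). In both genes control libraries 1 and 3 were the highest and the lowest of all 6 libraries. Neither passed, and both turned negative without control library 3, to -0.13 for mt-Rnr1 and -0.20 for mt-Rnr2, or when IL-17 library 3 was left out, to -0.017 and -0.023. The ratio of mt-Rnr1 to mt-Rnr2 held between 1.40 and 1.61 in IL-17 libraries and between 1.40 and 1.51 in controls. In poly(A) libraries these levels do not measure the amount of rRNA.

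As a share of all FPKM, the summed mRNAs were higher in IL-17 libraries and the summed tRNAs lower, the tRNA difference lying in the 5 genes between mt-Nd2 and mt-Co1. The mRNAs took 5.45%, 5.65% and 5.61% in IL-17 libraries and 5.07%, 5.13% and 4.62% in the controls. The tRNAs took 0.338%, 0.321% and 0.353% in IL-17 libraries and 0.389%, 0.426% and 0.369% in the controls. In neither class did the groups overlap. The 5 tRNA genes took 0.168%, 0.137% and 0.158% in IL-17 libraries and 0.214%, 0.249% and 0.206% in the controls. The other 17 tRNA genes took 0.170%, 0.184% and 0.195% in IL-17 libraries and 0.175%, 0.177% and 0.162% in the controls, a higher mean with IL-17 and overlapping groups. The rRNAs took 0.145%, 0.173% and 0.189% in IL-17 libraries and 0.212%, 0.163% and 0.120% in the controls, with full overlap. All 37 together took 6.07% ± 0.124 in IL-17 libraries and 5.50% ± 0.338 in controls (SD, n = 3 each), a difference of 0.576 percentage points that became 0.381 with control library 3 dropped and 0.452 with IL-17 library 1 dropped as well. No test is given for these sums, and the split of 5 against 17 tRNA genes was not planned.

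Weighted by gene length, the share was smaller. With each FPKM multiplied by gene length, the 37 genes took 1.71%, 1.80% and 1.79% of mapped fragments in IL-17 libraries and 1.70%, 1.58% and 1.47% in the controls. The groups were apart, but IL-17 library 1 and control library 1 differed little. Of this the tRNAs made up 0.00840% to 0.00904% in IL-17 libraries and 0.00928% to 0.0107% in controls.

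**Figure D4:**
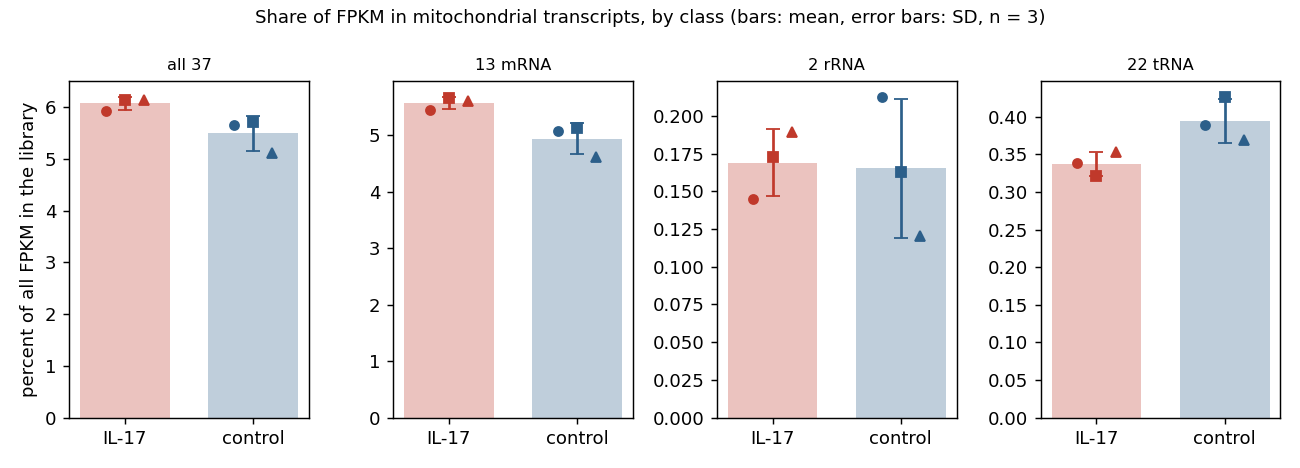
Percent of all FPKM (vertical axes from 0) taken by all 37 mitochondrial genes and by mRNAs, rRNAs and tRNAs, in IL-17 (red, left) and control libraries (blue, right); bars are means, error bars SD over 3 libraries and symbols single libraries. The mRNA points are higher and the tRNA points lower with IL-17, without overlap, and the rRNA points overlap fully.

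Several mitochondrial genes have copies in nuclear DNA with the same sequence. On chromosome 1 (GRCm38), 7 pseudogenes on the minus strand lie between positions 24611535 and 24616197. Of these Gm10925, Gm28437, Gm28438, Gm28439, Gm28661 and Gm29216 formed the list, and Gm10222 was added after its values had been seen, from a sequence search. Compared with the mitochondrial genes, Gm10925 matched mt-Atp6 over 678 bases, Gm28437 matched mt-Co3 over 783, Gm28661 matched mt-Co2 over 681, Gm28439 matched mt-Nd4 over 876 and Gm10222 matched mt-Nd4l over 294, each with 0 mismatches. Gm28438 differed from mt-Nd3 at 1 of 345 bases and Gm29216 from mt-Co1 at 1 of 483.

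Their FPKM followed those of the mitochondrial genes in each library. Gm28437 stood at 0.997 to 1.002 times mt-Co3, Gm28661 at 0.992 to 0.999 times mt-Co2, and Gm10925 at 1.06 to 1.07 times mt-Atp6. Gm28438 and Gm10222 stood at 1.02 to 1.03 times mt-Nd3 and 1.01 to 1.02 times mt-Nd4l. Gm28439, whose sequence matches part of mt-Nd4, stood at 0.649 to 0.687 times that gene, and Gm29216, matching part of mt-Co1, at 0.300 to 0.329 times. Reads of such stretches cannot be told apart, so the mitochondrial and nuclear values are uncertain as a pair, and the copies add no separate evidence. With the 6 listed copies added, the share of FPKM was 8.61%, 8.89% and 8.83% in IL-17 libraries and 8.14%, 8.29% and 7.36% in the controls.

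Copies of at least 50 bases at 90% identity among annotated transcripts were found for 13 of the 37 genes. Of these 11 were mRNAs and 2 tRNAs, mt-Tl1 and mt-Tn. For mt-Tn, the match was a stretch of Cep295 at 91.5% identity over 71 bases, a gene averaging 0.561 FPKM. No such copy was found for mt-Tw, mt-Ta, mt-Tc, mt-Ty or mt-Tt. Untranscribed or unannotated nuclear copies were not searched.

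**Figure D5:**
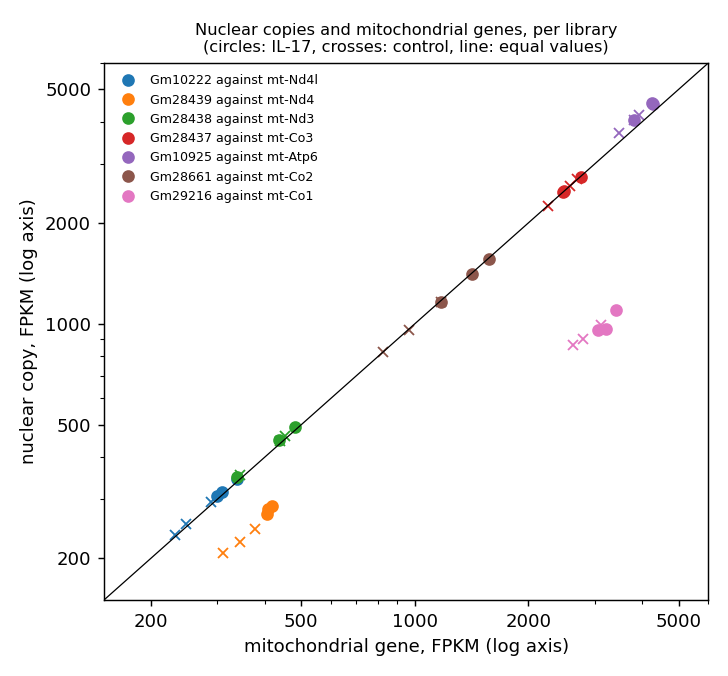
FPKM of 7 nuclear copies (vertical, log axis) against the matching mitochondrial gene (horizontal, log axis) in each library; circles are IL-17 and crosses control libraries, colours mark the pairs and the line marks equal values. Of the 7 pairs 5 lie on or just above or below the line, and Gm28439 and Gm29216 lie under it at near-constant ratios.

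Nuclear genes that act on mitochondrial DNA and RNA were examined as 8 lists, which held 150 genes, of which 145 were tested. None was called by limma over all genes in either direction. The median log2 fold change over the 145 was -0.035, between -0.28 and 0.26, against 0.016 over all tested genes. IL-17 values lay wholly above the controls for 11 and wholly below for 23 of them, where these arrangements held for 13.3% and 10.9% of all tested genes.

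In the transcription list 8 genes were tested and 0 passed, with a median of 0.00058. Tfb2m, the factor that opens the promoter, was at 2.56 ± 0.296 FPKM in IL-17 libraries and 1.98 ± 0.225 FPKM in controls (SD, n = 3 each; log2 fold change 0.26, SE 0.089; limma adjusted p = 0.208). Polrmt, the polymerase, was at 8.32 ± 0.932 FPKM in IL-17 libraries and 9.43 ± 1.04 FPKM in controls (log2 fold change -0.16, SE 0.098). Among 13 genes of mitochondrial DNA maintenance, 0 passed and the median was 0.018. Those with the lowest p were Rnaseh1, which removes RNA from RNA-DNA hybrids, and the topoisomerase gene Top1mt, with log2 fold changes of -0.28 (SE 0.099) for Rnaseh1 and -0.16 (SE 0.073) for Top1mt.

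None of the 13 genes of precursor processing and tRNA maturation passed, and their median was -0.0061. Trmu, an enzyme that modifies the wobble base of some mitochondrial tRNAs, was at 2.61 ± 0.0990 FPKM in IL-17 libraries and 3.19 ± 0.0777 FPKM in controls (log2 fold change -0.21, SE 0.058; limma adjusted p = 0.132). Trnt1, which adds the CCA end to tRNAs, was at 3.58 ± 0.0177 FPKM in IL-17 libraries and 3.10 ± 0.248 FPKM in controls (log2 fold change 0.16, SE 0.065; limma adjusted p = 0.274). Among 10 genes of RNA stability and polyadenylation 0 passed, with a median of 0.0054, and those with the lowest p were Tbrg4 (-0.096) and Fastkd1 (0.12), both of the FASTK family.

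The 3 genes of RNA decay had negative log2 fold changes and 0 passed. Supv3l1, the helicase of the mitochondrial degradosome, was at 8.75 ± 0.636 FPKM in IL-17 libraries and 9.80 ± 0.342 FPKM in controls, and Pnpt1, its exonuclease partner, at 11.5 ± 0.155 FPKM in IL-17 libraries and 12.3 ± 0.513 FPKM in controls. Among 6 tested coactivators and transcription factors 0 passed, with a median of 0.062, and Nfe2l2, the gene of NRF2, came nearest at a log2 fold change of 0.24 (SE 0.062; limma adjusted p = 0.117), followed by Esrra at 0.090.

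The genes of mitochondrial translation also had 0 calls. Of 78 mitochondrial ribosomal protein genes, 2 had IL-17 values wholly above and 16 wholly below the controls, where 13.3% and 10.9% of all tested genes did, and the median log2 fold change was -0.054. Mrpl54 was at 80.4 ± 2.59 FPKM in IL-17 libraries and 96.4 ± 4.55 FPKM in controls (log2 fold change -0.26, SE 0.054; limma adjusted p = 0.0657), and Mrps17 had a log2 fold change of -0.23 (SE 0.052; limma adjusted p = 0.0786). Of 15 translation factors and rRNA-modifying enzymes the median was -0.068. Tufm, the elongation factor that brings tRNAs to the ribosome, was at 88.2 ± 5.29 FPKM in IL-17 libraries and 101.6 ± 0.732 FPKM in controls (log2 fold change -0.20, SE 0.055), and Tsfm, its exchange factor, had a log2 fold change of -0.15 (SE 0.059). At an unadjusted p under 0.05 there were 22 of the 145, against 16.7% of all tested genes.

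The sequences of the 13 mRNA genes differ by strand. mt-Nd6 is 28.1% G and 5.97% C on its coding strand, while the 12 plus-strand mRNAs are 5.88% to 16.1% G and 22.1% to 30.0% C. At their 3′ ends 10 of the 13 annotated mRNA genes close with a whole stop codon. In mt-Co3, mt-Nd4 and mt-Cytb the gene ends on a single T, which polyadenylation completes to a stop codon. Genes without a whole stop codon had log2 fold changes of 0.038, 0.26 and 0.26, inside the range of the others.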

How the data were processed

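Poly(A) RNA of 6 HT22 libraries was sequenced in pairs of reads on a NovaSeq, per the labels' protocols, with second strands marked by dUTP. The authors deposited FPKM per Ensembl gene, and fastp, StringTie, edgeR and build mm10 are named per the submitters' processing notes, without versions or order. The aligner, the annotation and any use of strand are not given in the sources used here. Symbols, strands and lengths came from GENCODE vM21 (GRCm38, also called mm10), which matched 26525 identifiers and missed 70. The members, gene lists and settings were chosen with earlier results of these data known.

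FPKM were used without rescaling as log2(FPKM + 1), a scale that understates changes of low genes. Genes averaging at least 0.5 FPKM were tested, which kept 12953, with all 37 mitochondrial genes among them, and left out 13642. The 3 IL-17 libraries were compared with the 3 controls in limma 3.58.1 (R 4.3.3), fitting group as the sole term and a trend of variance on mean, Benjamini-Hochberg adjustment and calls at 0.05. The script was tested on simulated data. All mitochondrial genes are accounted for. From each nuclear list the 2 genes with the lowest p are named where none was called. Alternatives changed the pseudocount, filter, scaling (TMM, quantile, TPM, nuclear genes), variance model, threshold, block and libraries. Whole-library depth was estimated from FPKM steps, since the table holds no counts.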

Additional observations from a re-analysis of the deposited data

How the results depend on the processing

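Of 700 alternative values of single mitochondrial genes, 640 kept direction and side of the threshold. A further 25 lost a call, 15 gained 1 and 20 changed sign. None of these 20 came from a called gene, and the causes were not tested. Settings that changed the filter, the variance trend, the block or the threshold left each log2 fold change as it was, so direction could not change there. As 33 of the 37 genes were also uncalled in the main fit, the 640 is no measure of robustness. The median log2 fold changes of mRNAs (0.14 to 0.24 without single libraries), tRNAs (-0.13 to -0.045) and rRNAs (-0.16 to 0.28) moved by less than the spread between libraries under all 19 alternatives, although that of the rRNAs changed sign. The number of mitochondrial genes called was 4 of 37, all lower. It was 1 without a filter, 12 with array weights (5 higher, 7 lower), and 7, all lower, at an adjusted p under 0.1. Leaving out single libraries gave 1 to 4 calls, 0 to 1 higher and 1 to 3 lower. Over all genes, 252 of 12953 were called, against 1015 with array weights and 533 at an adjusted p under 0.1 of the same 12953. Without a filter, where more genes were tested, 135 were called. The number was 160 with IL-17 library 1 and control library 3 both dropped, and 117 to 254 without single libraries. Of the 145 nuclear list genes tested, 9 were called with array weights and 2 at an adjusted p under 0.1, smaller shares than over all genes.

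With the replicate number as a block, 80 genes were called, and 1 mitochondrial gene, mt-Tw (limma adjusted p = 0.0397). Same-numbered libraries had correlations of deviations of -0.14, 0.080 and 0.21, and not every library correlated best with its own number, so the numbers are not shown to pair the samples. The difference in mitochondrial share was 0.191 percentage points of fragments estimated from FPKM and gene length. It was 0.845 of FPKM with nuclear copies added, against 0.576, and 0.381 to 0.686 without single libraries.

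With libraries left out singly or as that pair, the log2 fold changes that crossed 0 ran from -0.20 to 0.028 for mt-Tf, -0.13 to 0.31 for mt-Rnr1, -0.20 to 0.25 for mt-Rnr2, -0.021 to 0.19 for mt-Ti, -0.017 to 0.32 for mt-Tq, -0.40 to 0.12 for mt-Tk, -0.039 to 0.092 for mt-Co3, -0.00091 to 0.36 for mt-Tg, -0.11 to 0.16 for mt-Nd3, -0.0045 to 0.10 for mt-Nd6 and -0.12 to 0.038 for mt-Te. Several tRNA genes were low on the scale of estimated fragments, and how far depth limits them was not tested.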
